A study of Danio rerio with 12 samples.

Results

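The genes described here are the neuron and glia fate genes neurog1, neurod1, neurod4, phox2a, isl1a, elavl3, elavl4 and fabp7a, followed through trunk neural crest of the zebrafish before and after migration. They were found by gene name in the deposited table, ignoring case, and where no name matched, without the final paralog letter. All 8 names were found, on 9 of the 25878 gene identifiers of the table. For isl1a (as ISL1) and fabp7a (as FABP7) the match was to the name without its last letter. FABP7 stands on 2 identifiers, ENSDARG00000007697 and ENSDARG00000034650, and the names used do not tell which paralog each is.

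All embryos carried the transgene sox10:H2B-Dendra2, in which the sox10 promoter drives a nuclear protein that changes colour under violet light, so that chosen crest nuclei could be converted and sorted. RNA of 20 sorted cells per library was amplified and sequenced, in 4 premigratory libraries at 16 hours after fertilisation and 8 migratory libraries at 24 hours. Migratory cells were taken beside somites 10 to 15, premigratory cells from a hand-drawn dorsal area that held several cells. State of migration, age and place of sampling differ together between the groups and cannot be told apart. Before and after migration are used below as names of these groups. Rose or fell means called higher or lower in migratory libraries. Both groups are labelled as control in treatment, and leader and follower cells are not told apart among migratory libraries in the labels, nor is it given how many of the 8 embryos converted per population stand behind each library.

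The trunk neural crest leaves the dorsal neural tube and gives rise to sensory neurons of the dorsal root ganglia, sympathetic neurons, Schwann cells and pigment cells. Sensory neurons are specified by Neurogenin 1, a basic helix-loop-helix factor that turns on NeuroD factors, and then express Islet 1 and the RNA-binding Elavl proteins. Phox2a, a paired-like homeodomain factor, belongs instead to the noradrenergic programme of sympathetic neurons. Fabp7, a brain-type fatty acid binding protein, marks radial glia and early crest-derived glia. Elavl3 and Elavl4 are general markers of newborn neurons in the central nervous system too.

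Values are the authors' normalised values per gene, which sum to between 10735983 and 21711424 per premigratory library and between 17765775 and 24227327 per migratory one. A value of 10 or more is called clear signal below. Between 3650 and 6879 genes reached it in each premigratory library and between 9007 and 11896 in each migratory one, so that every migratory library had more genes with clear signal than any premigratory one. As a share of all 25878 identifiers these are 14.1% to 26.6% and 34.8% to 46.0%. Of 15 identifiers of crest markers, 11 to 13 had clear signal in each migratory library and 7 to 9 in premigratory replicates 2 to 4. sox10, whose promoter drives the transgene, was at 1225 or more in all 12 libraries. foxd3, a factor of premigratory crest, was under 10 in premigratory replicates 2 and 3 (5.80 and 1.99) and at 978 or more in every other library. Premigratory replicate 1 had clear signal of 3 of the 15 crest identifiers, crestin at 5.97 and epidermis markers summing to 2517470, the highest of all libraries. Migratory replicate 5 had 12 of 15 crest identifiers but the lowest migratory values of sox10 (1225) and crestin (135), and blood markers summing to 1892010 against at most 20224 in any other library. Both libraries stand apart, and tests are given with and without them where they bear on a result. Markers of other cells were not confined to these 2 libraries. Epidermis markers also summed to 959701 in migratory replicate 8, 610032 in migratory replicate 1 and 458647 in premigratory replicate 4.

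Apart from elavl3, the fate genes had no clear signal before migration, and those found after it were found in different migratory libraries for different genes. Clear signal in at least 1 migratory and no premigratory library was found for 5 of the 9 identifiers, namely neurog1, neurod4, isl1a, elavl4 and FABP7 (ENSDARG00000007697). The same pattern held for 29.7% of all 25878 identifiers. elavl3 had clear signal in both groups. The other 3 identifiers, of neurod1, phox2a and the second FABP7 identifier, had clear signal in no library, as did 27.5% of all identifiers. For elavl4 the cut of 10 fell between close values, 9.19 in premigratory replicate 4 and 11.5 in migratory replicate 4. Those libraries had the most genes above 0 in their groups, 19962 and 22180. The part of this in their low values was not tested. Since each library pools 20 cells, fewer cells of a type and less RNA per cell cannot be told apart.

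**Figure D1:**
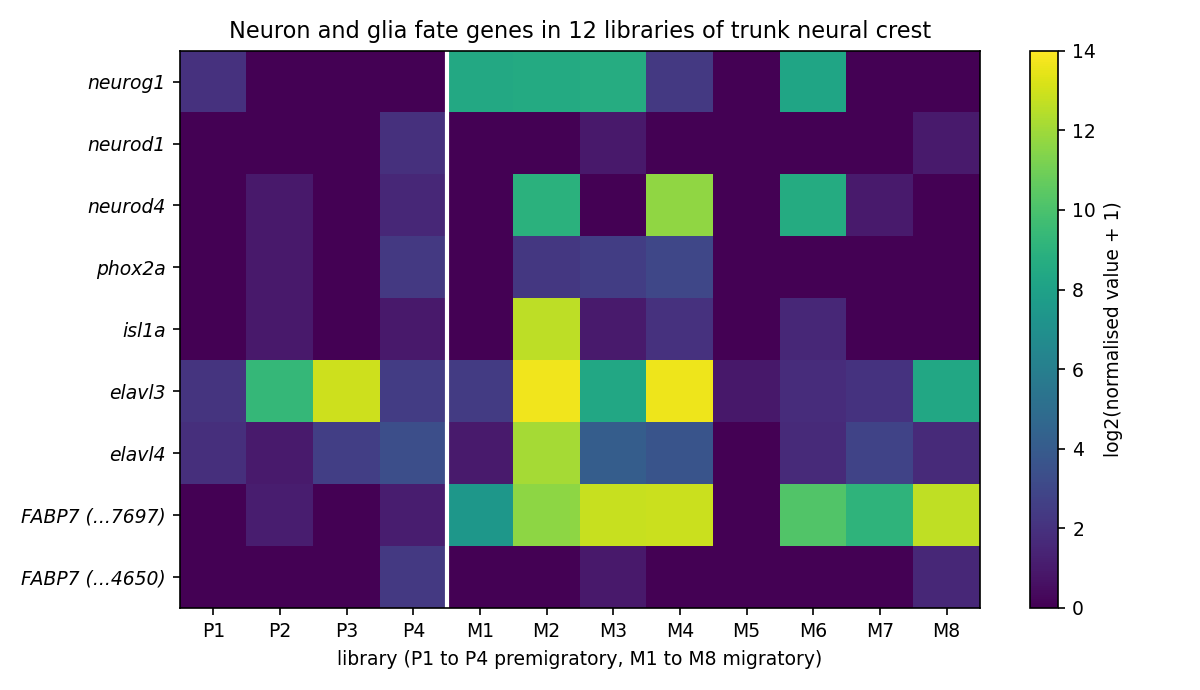
Heat map of log2(normalised value + 1) of the 9 identifiers (rows) in 4 premigratory (P1 to P4) and 8 migratory (M1 to M8) libraries, separated by the white line. FABP7 (ENSDARG00000007697) is bright in 7 of 8 migratory libraries, and isl1a only in M2, while phox2a and neurod1 stay dark throughout.

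The number of fate gene identifiers with clear signal differed widely between migratory libraries. It was 6 in migratory replicate 2, 4 in replicates 3 and 4, 3 in replicate 6, 2 in replicates 1 and 8, 1 in replicate 7 and 0 in replicate 5. In premigratory libraries it was 1 in replicates 2 and 3, elavl3 in both, and 0 in replicates 1 and 4. The summed share of the 9 identifiers in a library's total was 0.157% in migratory replicate 2 and 0.123% in replicate 4, and at most 0.0485% in any other library. The 4 premigratory libraries, with the fewest genes at clear signal, had 0 or 1 fate gene identifier, and replicate 5, with the fewest among migratory libraries (9007), had 0. Replicate 4, with 9184 genes, had 4 and replicate 8, with 11896, had 2. The part of the number of genes found in these counts was not tested.

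FABP7, the glial gene of the set, was the one fate gene called higher in migratory libraries. Identifier ENSDARG00000007697 had values of 0, 1.17, 0 and 1.19 in premigratory replicates 1 to 4. In migratory libraries its lowest value was 0, in replicate 5, its median 2152 and its highest 7568, in replicate 4. The other 7 migratory libraries lay between 171 and 7568, all above every premigratory library, so the groups overlapped through replicate 5 alone. The mean was 0.592 ± 0.683 (SD, n = 4) before and 3291 ± 3319 (SD, n = 8) after migration, and the difference on the log2 scale was 9.02 with an SE of 2.16 (adjusted p = 0.0150 in limma with Benjamini-Hochberg adjustment over 12122 tested genes). The fold change is on the log2(value + 1) scale, which sets its size for a gene near 0 in 1 group. Of the 3 fate gene identifiers with enough signal to be tested, 1 rose and 0 fell, and of all tested genes 12.4% rose and 0.132% fell. With quantile normalisation 223 genes rose and 34 fell, against 1508 and 16 here. Over the tested genes the log2 fold changes had a median of 2.67, which became 2.38 with scaling by a trimmed mean of M values, 0.61 with quantile normalisation and 0.94 without a filter. FABP7 lay above the median gene under each of these settings. FABP7 and neurog1 passed the filter of 4 libraries through migratory libraries alone. A gene found in premigratory libraries alone would need all 4 of them, so the tested genes lean to those found after migration. Without a filter FABP7 was also called (9.02, limma, adjusted p = 0.0244), where 3.39% of genes rose and 0.0279% fell. None of the 3 tested identifiers had all migratory libraries above all premigratory ones, as 4.83% of tested genes did, or all below, as 0.14% did.

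In each of the 4 batches that hold both groups, FABP7 was higher in the migratory library, by 7.42 to 12.85 on the log2 scale. With the batch number as a fixed replicate block, a fit in which no gene of the table was called, the log2 fold change was 10.63 and the call was lost (limma, adjusted p = 0.158). It was also lost under quantile normalisation (7.96, adjusted p = 0.0553). Without premigratory replicate 1 and migratory replicate 5 it was 10.20 (adjusted p = 0.00131), and the gene was also called when any single library was left out. Clear signal in 7 or 8 migratory and no premigratory library, as for this identifier, was found for 2.39% of all identifiers. The second FABP7 identifier was at 0 in 9 libraries, and its other values were 3.93 in premigratory replicate 4, 0.972 in migratory replicate 3 and 1.95 in migratory replicate 8.

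**Figure D2:**
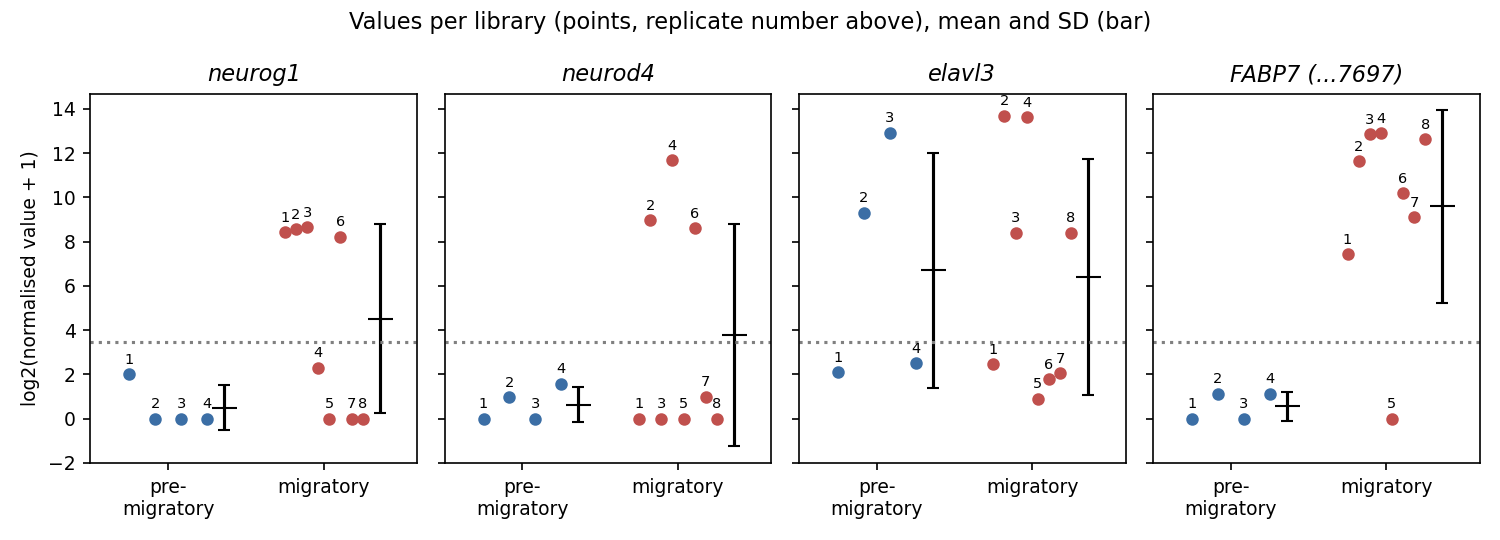
Values per library on the log2(normalised value + 1) scale for neurog1, neurod4, elavl3 and FABP7 (ENSDARG00000007697), with replicate numbers above the points, bars for the group mean and SD (n = 4 and n = 8), and a dotted line at a value of 10. For FABP7, 7 migratory points lie above every premigratory point, neurog1 and neurod4 split the migratory libraries, and elavl3 splits both groups.

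Of the proneural factors, neurog1 was found in 4 of 8 migratory libraries at much the same level. It had values of 3.00, 0, 0 and 0 in premigratory replicates 1 to 4. Its values were 343, 375, 402 and 295 in migratory replicates 1, 2, 3 and 6, and 3.92, 0, 0 and 0 in replicates 4, 5, 7 and 8. The group splits into 4 libraries at 295 to 402 and 4 at 3.92 or less, and the median of 149.5 describes neither. Its mean was 0.751 ± 1.50 (SD, n = 4) before migration and 177 ± 191 (SD, n = 8) after it. The log2 fold change of 4.02 (SE 2.01) did not pass (limma, adjusted p = 0.173), nor did it without premigratory replicate 1 and migratory replicate 5 (5.16, adjusted p = 0.138). Within batches 1, 2 and 3 the migratory library was higher by 6.43, 8.56 and 8.65 on the log2 scale, and within batch 4 by 2.30.

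neurod4, a NeuroD factor that acts after Neurogenin in newborn neurons, was found in migratory replicates 2, 4 and 6 at 494, 3271 and 389. Its other 5 migratory values were at most 0.986, and its premigratory values were 0, 0.963, 0 and 1.97. Replicates 2 and 6 thus had clear signal of both neurog1 and neurod4, replicates 1 and 3 of neurog1 alone and replicate 4 of neurod4 alone. With 3 libraries the gene lay under the filter, and without a filter its log2 fold change of 3.14 (SE 2.32) did not pass (limma, adjusted p = 0.568 over 25095 genes, of which 3.39% rose and 0.0279% fell). neurod1, its better known relative, had no value above 2.91 in any library.

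phox2a, the homeodomain factor of the autonomic lineage reported here, was not detected at a clear level. It was at 0, 0.975, 0 and 3.95 in premigratory replicates 1 to 4, and from 0 to 6.87 in migratory libraries. Its highest value was in migratory replicate 4. Of 20 identifiers on a list of autonomic and enteric neuron genes, phox2a among them, 0 to 3 had clear signal in premigratory and 2 to 6 in migratory libraries. These are 0% to 15% and 10% to 30% of the list, where all identifiers had 14.1% to 26.6% and 34.8% to 46.0%. The share of the list was below that of all identifiers in every library. The examples that follow were named after their values were seen. TH and DBH, enzymes of noradrenaline synthesis, reached at most 5.94 and 2.48. RET, a receptor of glial-derived neurotrophic factors, reached 1210 in migratory replicate 1 and had clear signal in 4 further migratory libraries. Its co-receptor gfra1a reached 1540 in replicate 2, and GATA2 and HAND2, transcription factors of sympathetic neurons and other tissues, reached 4032 and 678 in replicate 5. That library had the highest sum of blood markers and the lowest migratory values of sox10 and crestin. The part of blood cells in the GATA2 and HAND2 values was not tested. GATA3, on the same list, was highest before migration, at 1113 in premigratory replicate 4, and reached 587 in migratory replicate 1. Its log2 fold change of -2.23 (SE 2.18) did not pass (limma, adjusted p = 0.4985). How far the depth of these libraries limits such low values is unknown, since the table gives no counts.

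isl1a, a LIM homeodomain factor of sensory and motor neurons, stood at 6286 in migratory replicate 2 and at most 2.96 in the other 11 libraries. Such a pattern, with 1000 or more in 1 library and under 10 in all others, was found for 205 identifiers, 0.792% of the table. The 2 RNA-binding Elavl genes were also highest there. elavl4 was at 4499 in replicate 2, at 16.2 and 11.5 in replicates 3 and 4, at most 5.94 in the other migratory libraries, and at 2.71, 1.02, 4.99 and 9.19 in premigratory replicates 1 to 4. Neither passed without a filter, with log2 fold changes of 1.66 for isl1a (SE 1.86, limma, adjusted p = 0.694) and 1.17 for elavl4 (SE 1.98, adjusted p = 0.793). Without migratory replicate 2 these became 0.17 (adjusted p = 0.885) and -0.085 (adjusted p = 0.981), and with quantile normalisation that of elavl4 was -2.57 (adjusted p = 0.602).

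elavl3 was the only fate gene with clear signal before migration. Its premigratory values were 3.25, 634, 7726 and 4.66 in replicates 1 to 4. Migratory values were 13147 in replicate 2, 12599 in replicate 4, 337 and 338 in replicates 3 and 8, and 0.871 to 4.44 in the other 4 libraries. Both groups therefore split into libraries at 337 or more and libraries at 4.66 or less. Means were 2092 ± 3767 (SD, n = 4) and 3304 ± 5910 (SD, n = 8), and the log2 fold change of -0.29 (SE 2.83, limma adjusted p = 0.955) had a sign that turned under the replicate block (2.83) and without premigratory replicate 3 (1.78). Within batches the difference was 0.36, 4.37, -4.52 and 11.12 on the log2 scale in batches 1 to 4.

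Migratory replicate 2 carried a broad set of sensory neuron genes beside isl1a, elavl3 and elavl4. Of 29 identifiers on a list of sensory neuron genes, 4 of them fate genes above, 16 had clear signal in this library, or 55.2% where 39.0% of all identifiers did. It was 1 to 9 in the other migratory libraries, or 3.45% to 31.0%, below the share of all identifiers in each of them. In premigratory libraries it was 1 to 5, or 3.45% to 17.2%, again below that share. Named after their values were seen, pou4f4 (4817), POU4F1 (518) and both ISL2 identifiers (1062 and 2455) had at most 6.91 in the other 11 libraries. These are Brn3 and Islet factors of sensory neurons, but POU4F2 and POU4F3 on the same list were at 0 in this library. A TLX3 identifier, a homeobox factor of sensory neurons, was at 3283 against at most 1.98. A P2RX3 identifier, the ATP-gated channel of sensory endings, was at 3292 against at most 15.1, and DRGX, a dorsal root ganglion homeobox factor, at 5628 against at most 130.4. The other TLX3 and P2RX3 identifiers, RUNX1 and TRPA1 were at 0 in this library too.

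**Figure D3:**
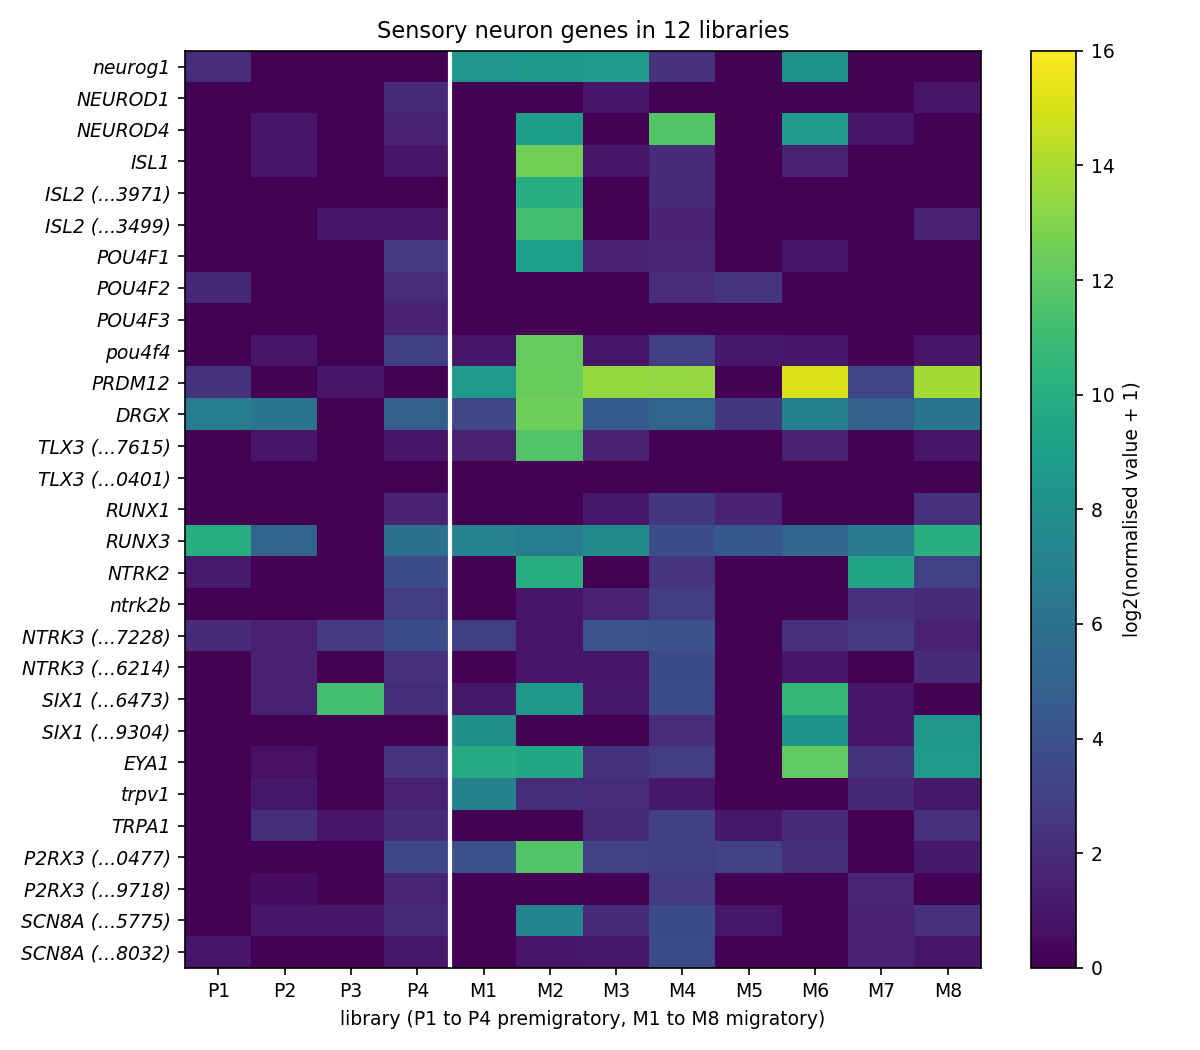
Heat map of log2(normalised value + 1) of the 29 identifiers of the sensory neuron list (rows) in 12 libraries (P1 to P4 premigratory, M1 to M8 migratory), with the last 4 digits of an identifier where a name occurs more than once. The ISL1, ISL2 and pou4f4 rows and 1 of the TLX3 rows are bright in M2 alone, whereas PRDM12 is bright in 6 migratory libraries.

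General neuron genes stood out in the same library. Of 39 identifiers, which include elavl3 and elavl4, 26 had clear signal in migratory replicate 2, or 66.7% where 39.0% of all identifiers did. It was 7 to 14 in the other migratory libraries (17.9% to 35.9%, where all identifiers had 34.8% to 46.0%). In premigratory libraries it was 2 to 6 (5.13% to 15.4%, where all had 14.1% to 26.6%). Among the 26 were gap43 (5674), a growth cone protein, and both STMN2 identifiers (5199 and 4094), which regulate microtubules in axons. Another was a SNAP25 identifier (4147), a protein of synaptic vesicle fusion. Of the 205 identifiers with 1000 or more in 1 library alone, 9 were on the sensory, autonomic, general neuron, glial or neural tube lists. These lists hold 29, 20, 39, 32 and 34 of the 25878 identifiers. Migratory replicate 2 had 20 of the 205, and 8 of those 20 were on these lists. They were GNG3, ISL1, both ISL2 identifiers, STMN2, STMN4, TLX3 and pou4f4. Premigratory replicate 1, migratory replicate 1 and migratory replicate 5 had 39, 38 and 37 of the 205, none on these lists.

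The list of Rohon-Beard markers shares isl1a, ISL2, DRGX, TLX3, PRDM12 and P2RX3 with the sensory list. It also peaked in migratory replicate 2, with clear signal of 10 of 15 identifiers, or 66.7% where 39.0% of all identifiers had it. The 2 peaks are in part the same values. Rohon-Beard cells are early sensory neurons inside the dorsal neural tube, and the 2 lists cannot separate them from ganglion neurons. Neural tube progenitor and neuron markers were few in that library, with 3 of 34 identifiers (8.82%) and a sum of 579. The other migratory libraries had 2 to 12 identifiers and sums of 1159 to 15663. The share of this list was below that of all identifiers in every migratory library. Crest markers stood at 12 of 15 identifiers there, sox10 at 9081, and muscle markers summed to 331674, where the other migratory libraries ranged from 736 to 919759. The part of these other cells in the neuronal values was not tested.

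Migratory replicate 4, the other library with high elavl3, had clear signal of 12 of 34 neural tube markers, or 35.3%, where 35.5% of all identifiers had it. The count was the highest of the 12 libraries, but the markers' sum of 15281 was lower than those of migratory replicates 6 and 7 (15589 and 15663) and premigratory replicate 1 (21045). The highest of these, named after their values were seen, were her4.2 (4827), a Notch target of neural progenitors, SOX3 (4427) and sox19a (3059), SoxB1 factors of neural progenitors, and lbx1a (1788), a factor of dorsal spinal interneurons. Of these, her4.2 and SOX3 were higher still in a premigratory library (6239 in replicate 2 and 6447 in replicate 1). Of the general neuron list 14 of 39 identifiers had clear signal (35.9%) and of the sensory list 9 of 29 (31.0%), shares near or below that of all identifiers. Muscle markers summed to 736, the lowest migratory value, and crest markers had 11 of 15 identifiers with sox10 at 13508. The part of neural tube cells in the values of neurod4 and elavl3 was not tested.

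**Figure D4:**
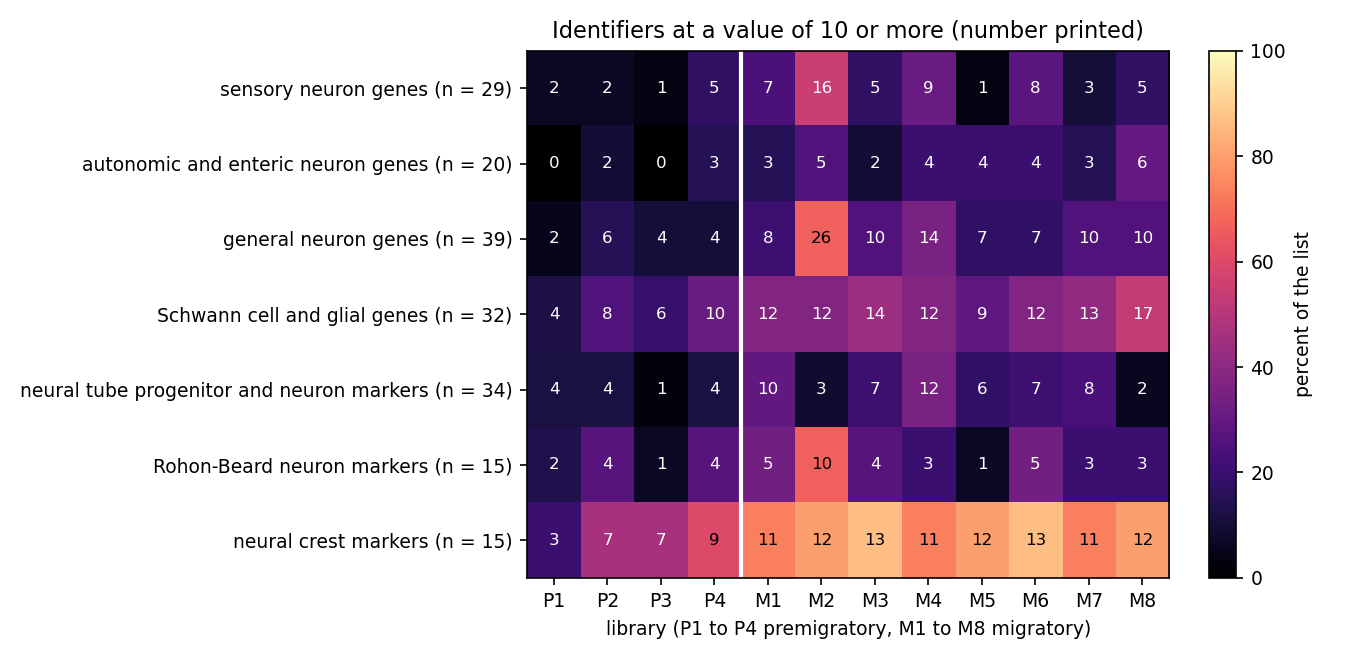
Number (printed) and percent (colour) of identifiers at a value of 10 or more for 7 gene lists (rows) in 4 premigratory (P1 to P4) and 8 migratory (M1 to M8) libraries. M2 holds 16 of 29 sensory and 26 of 39 general neuron identifiers but 3 of 34 neural tube identifiers, and M4 holds 12 of 34 neural tube identifiers.

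Of the 29 sensory identifiers 6 were tested, 1 rose and 0 fell, where 12.4% of all tested genes rose and 0.132% fell, with a median log2 fold change of 2.70, close to the 2.67 of all tested genes. The gene that rose was PRDM12, a chromatin regulator that nociceptive sensory neurons of mammals need. PRDM12 was under 10 in every premigratory library and passed the filter through migratory libraries alone. It was at 4.02, 0, 0.990 and 0 in premigratory replicates 1 to 4, and at 35733 in migratory replicate 6, at 426 to 14500 in 5 further migratory libraries, 9.75 in replicate 7 and 0 in replicate 5. Its log2 fold change was 9.21 (SE 2.56, limma adjusted p = 0.0288, higher than every premigratory library in 7 of 8 migratory libraries). The call was lost with the replicate block (adjusted p = 0.158), with quantile normalisation (0.177), without a filter (0.0507), and without premigratory replicate 2, 3 or 4 or migratory replicate 8 (0.0526, 0.0684, 0.0593 and 0.0502).

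No autonomic or general neuron gene passed. Of 20 identifiers of autonomic and enteric neuron genes 4 were tested, 0 rose and 0 fell, with a median log2 fold change of 2.04. Of 39 general neuron identifiers 11 were tested, 0 rose and 0 fell, with a median of 3.44. Among all tested genes 12.4% rose and 0.132% fell, with a median of 2.67. With counts this small neither list is shown to differ from other genes. Some general neuron genes, named after their values were seen, had their highest value before migration. A DCLK1 identifier reached 4154 in premigratory replicate 3 and at most 242 after migration. An INA identifier reached 1862 in premigratory replicate 2 and at most 1.99 elsewhere, and tubb5 reached 3493 before and 1978 after migration. EBF2, a helix-loop-helix factor of differentiating neurons, was another. It was at 6124 and 16972 in premigratory replicates 2 and 3, the same libraries in which elavl3 had clear signal, and at 438 in migratory replicate 8 and at most 89.4 in every other library. Its log2 fold change of -3.98 (SE 2.31) did not pass (limma, adjusted p = 0.234).

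Glial genes were found in both groups at about the share of all genes. Of 32 identifiers on the Schwann cell and glial list, clear signal was present for 9 to 17 in migratory libraries (28.1% to 53.1%, where all identifiers had 34.8% to 46.0%) and 4 to 10 in premigratory ones (12.5% to 31.2%, where all had 14.1% to 26.6%). Of 15 tested, 3 rose and 0 fell, where 12.4% of all tested genes rose and 0.132% fell, and the median log2 fold change was 3.98 beside 2.67 for all tested genes. With counts this small the list is not shown to differ from other genes. Those that rose were FABP7 (ENSDARG00000007697), erbb3b and PMP22. With 1 library left out, the number that rose was between 1 and 4.

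erbb3b, the receptor through which axonal neuregulin directs Schwann cell precursors, was at 0 in premigratory replicates 1 to 3 and 1.78 in replicate 4. In migratory libraries it was at 119 to 1181 in 6 libraries, 2.16 in replicate 7 and 0 in replicate 5. Its log2 fold change was 6.37 (SE 1.92, limma adjusted p = 0.0400). PMP22, a compact myelin protein that many tissues also express, was at 0, 19.4, 0.944 and 4.99 in premigratory replicates 1 to 4. It was at 1390 to 3156 in 6 migratory libraries, and at 4.09 and 7.45 in replicates 2 and 4, within the premigratory range. Its log2 fold change was 6.94 (SE 2.06, limma, adjusted p = 0.0382). The paralog pmp22a was at 9735 to 74471 before and 918 to 86182 after migration and did not pass (log2 fold change -1.33, SE 1.18, adjusted p = 0.451). With the replicate block neither erbb3b nor PMP22 was called (adjusted p = 0.158 and 0.358), nor with quantile normalisation (0.102 and 0.201), without a filter (0.105 and 0.0692) or with a pseudocount of 10 (0.0860 and 0.0600). Leaving out single libraries gave adjusted p values of 0.0121 to 0.103 for erbb3b and 0.0156 to 0.0962 for PMP22. The erbb3b call was lost without any 1 of premigratory replicates 1 to 4 or migratory replicates 2, 3, 6 and 8. That of PMP22 was lost without any 1 of premigratory replicates 1, 3 and 4 or migratory replicates 3, 6, 7 and 8, and also without premigratory replicate 1 and migratory replicate 5 together (0.107).

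ERBB2, the partner receptor of erbb3b, stood at 0 in every premigratory library, reached 652 after migration with clear signal in 6 libraries, and did not pass (limma, adjusted p = 0.0517). EGR2, the regulator of myelination, had clear signal in migratory replicate 5 alone, at 118, the library with the highest sum of blood markers.

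**Figure D5:**
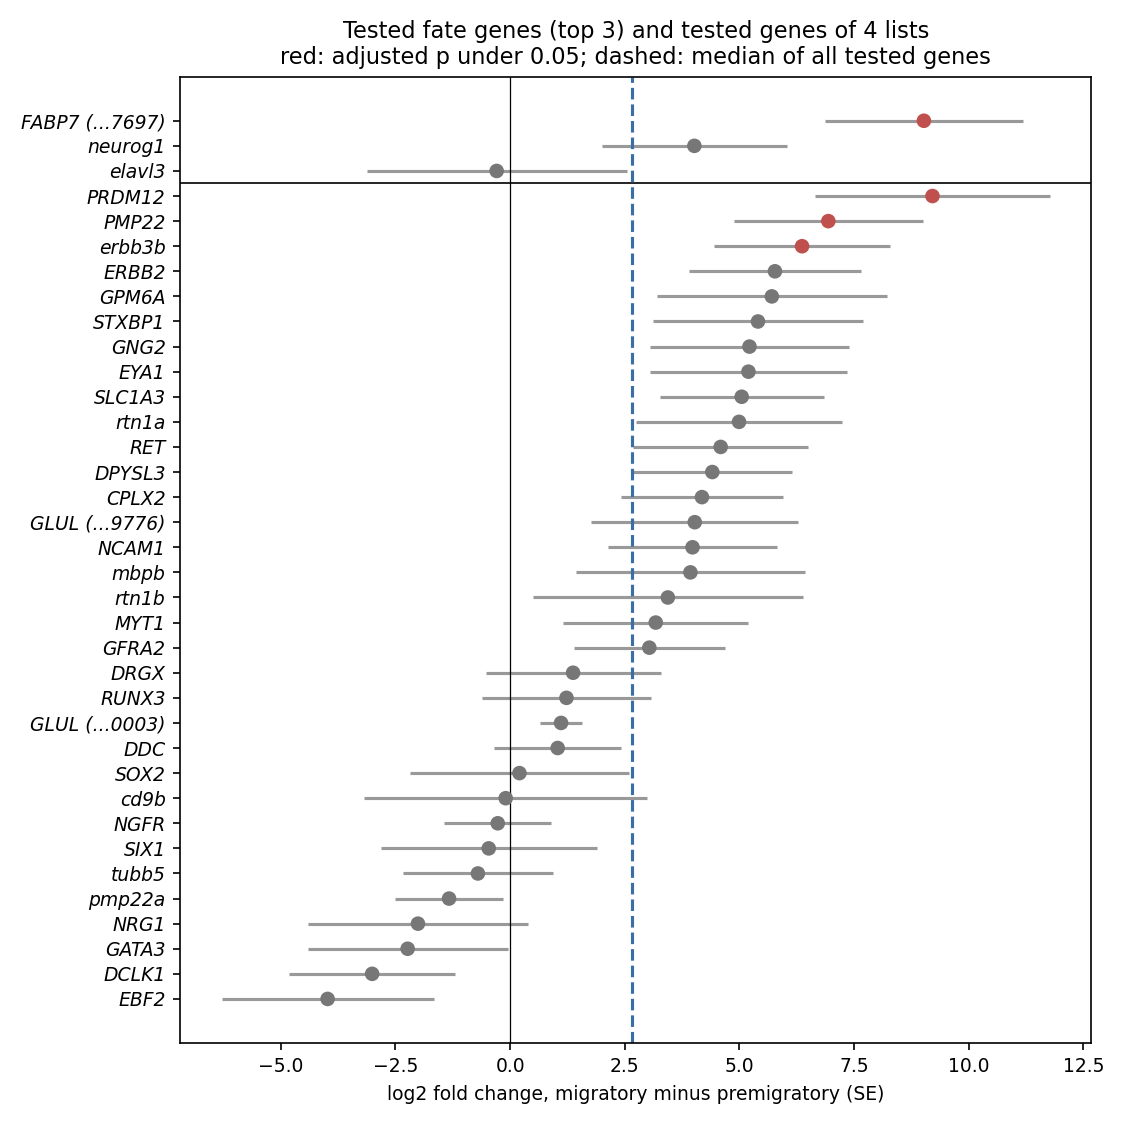
Log2 fold change (migratory minus premigratory, bars are SE) of the 3 tested fate genes, above the line, and of 33 other tested genes of the sensory, autonomic, general neuron and glial lists. Red points have a limma adjusted p under 0.05 (FABP7 above the line, PRDM12, PMP22 and erbb3b below it), and the dashed line is the median of all tested genes, 2.67.

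Some muscle and crest markers rose as well, where 12.4% of all tested genes rose and 0.132% fell. Of 14 tested muscle identifiers 5 rose and 0 fell, with a median log2 fold change of 6.89 beside 2.67 for all tested genes. The 5 were the muscle actin, creatine kinase, myosin and calcium pump genes actc1b, ckma, ckmb, myhz2 and atp2a1. Of 13 tested crest identifiers 6 rose and 0 fell, with a median of 3.75, namely FOXD3, MITF, PAX3, zeb2a, tspan36 and erbb3b, the last of which is on the glial list too. With 1 library left out, 1 to 8 muscle and 3 to 6 crest identifiers rose. With the fixed replicate block no gene was called. Without a filter the calls of ckmb, myhz2, atp2a1, FOXD3 and erbb3b were lost. ckma, ckmb, myhz2, atp2a1, MITF, PAX3 and erbb3b were under 10 in every premigratory library and passed the filter through migratory libraries alone. None of 8 neural tube, 3 blood and 16 epidermis identifiers rose or fell, with medians of 1.42, 3.26 and -2.03, and of 4 Rohon-Beard identifiers PRDM12 rose and 0 fell, with a median of 0.47. Muscle markers summed to between 91.9 and 4003 in premigratory libraries and between 736 and 919759 in migratory ones. In the 3 migratory libraries with the lowest muscle sums, replicates 3, 4 and 7 at 904, 736 and 879, FABP7 was at 7380, 7568 and 544.5. The part of muscle cells in FABP7 and the other glial values was not tested.

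A pair of genes on the glial list had clear signal before migration alone. cd9b, NRG1 and mbpb, named after their values were seen, also had their highest values before migration (46416, 2587 and 2779). They reached 21218, 863 and 2313 after it. The median log2 fold change of the 15 tested glial identifiers was 3.98. S100B, a calcium-binding protein of Schwann cells and other cells, was at 0, 7583, 1545 and 5628 in premigratory replicates 1 to 4 and at most 2.73 in all 8 migratory libraries. ADGRG6, the adhesion receptor that Schwann cells need for myelination in zebrafish and mouse, was at 0, 916, 6713 and 1851 before and at most 9.37 after migration. In both, premigratory replicates 2 to 4 lay above every migratory library, and replicate 1, poor in crest markers, was at 0. With 3 libraries they lay under the filter, which a gene found only before migration can pass with all 4 libraries alone.

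Both genes were named after their values were seen. Without a filter S100B fell by 8.23 on the log2 scale (SE 2.09, limma adjusted p = 0.0374). Without premigratory replicate 1 and migratory replicate 5 its log2 fold change was -11.11 (adjusted p = 0.00131). The S100B call was lost with the replicate block (0.496), with quantile normalisation (0.0785) and in 10 of 12 fits that left out 1 library, all but those without premigratory replicate 1 or migratory replicate 4. ADGRG6, at -7.00 with an SE of 2.07, did not pass (limma, adjusted p = 0.0767) and passed without premigratory replicate 1 (-9.78, adjusted p = 0.00343). Clear signal in at least 3 premigratory and no migratory library was found for 7 of 25878 identifiers, and S100B and ADGRG6 were 2 of these 7. The others were DLX2, a homeobox factor of crest and forebrain, angptl2b, tarbp1, si:dkey-81e3.2 and si:ch211-113a14.9.

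The genes with the closest pattern over the 12 libraries were found for the 3 tested fate genes by the root mean square difference of log2 values, each gene centred on its own mean, among 11648 tested genes with a name. For FABP7 (ENSDARG00000007697) they were hoxb10a, a posterior axial patterning gene, DCP2, the mRNA decapping enzyme, and mov10b.1, with differences of 1.15 to 1.22 where the median gene had 5.24. For neurog1 they were HOXC6, PNKD and cd9a, with differences of 1.01 to 1.05 where the median was 4.43. HOXC6, another axial patterning gene, had its signal in the same 4 migratory libraries as neurog1, at 398 to 762, and at most 2.59 elsewhere. For elavl3 no gene was as close, with TDP1, zgc:77439 and klf2a at 2.70 to 3.02 where the median was 6.16. These differences are descriptions of 12 libraries that differ in how many genes were found.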

How the data were processed

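Each value is a normalised signal for 1 gene in 1 library, deposited by the authors in a table whose name calls it normalised counts. The submitters' processing notes name fastp 1.0, Salmon and the build GRCz11. The normalisation method, annotation and filter: not given in the sources used here. Amplification used SMART-Seq v4, per the labels' protocols. At most 30.5% of the low values of any library were whole steps (tolerance 0.02), so no count model was used, and depth is unknown. Symbols were found for 23604 of 25878 identifiers, 0 columns were left out, and 0 pairs of libraries were identical.

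Groups came from the labels. Migratory and premigratory libraries were compared with limma 3.58.1 in R 4.3.3 (lmFit, then eBayes with trend). The input was log2(value + 1) of genes at 10 or more in at least 4 libraries, with Benjamini-Hochberg adjustment and calls at an adjusted p under 0.05. Genes under that filter were read from a fit over all genes above 0. The labels call each library a biological replica but do not say whether libraries share embryos. The p-values therefore reflect only how these libraries vary, which may be technical. The batch label equals the replicate number in every library. Numbers 1 to 4 occur in both groups and were used to pair libraries. For these 4 pairs the correlation of the deviations from group means was 0.155, 0.0118, 0.0424 and 0.0342. For libraries of different number it averaged -0.00869 and ranged from -0.0924 to 0.123, so the pairs are not clearly set apart by it. The fit was tested on simulated normal values with a capped spread. Those lack the split between libraries seen here, so the simulation does not show how the fit treats such genes. Other tools were Python 3.11.15 with pandas 2.3.3, numpy 2.4.6 and, for plots, matplotlib 3.10.9.

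The fate genes, the 10 gene lists (195 of 208 symbols matched) and the alternatives were chosen with earlier results of these data known. Named genes are all fate genes, up to 6 called genes per list, the 3 closest patterns per tested fate gene, and sox10, foxd3 and crestin. Others are marked as named after their values were seen, or illustrate a count. Pseudocount, filter, scaling, replicate block and left-out libraries were varied. Similar paralogs may share reads, and levels were not compared between genes, since transcript lengths were not used. Some genes of the set and of the lists are not reported here and are left out of every count of members and list genes. Sequences are not shown here.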

Additional observations from a re-analysis of the deposited data

Results flagged for a closer look

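In groups of 4 or 8 libraries the value farthest from the rest was set against Dixon's critical value. Chance passes it in about 1 of 20 groups where values are normally spread. The values here are skewed and often tied, so their rate of chance passes is unknown, and the flags are descriptions only. Migratory replicate 2 stood apart as the highest for isl1a (6286), elavl4 (4499), the number of general neuron identifiers with clear signal (26) and that of Rohon-Beard identifiers (10). Migratory replicate 4 stood apart as the highest for neurod4 (3271). Premigratory replicate 3 stood apart as the highest for elavl3 (7726) and as the lowest for neural tube identifiers with clear signal (1).

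The other values that stood apart were all low. They were neurog1 in premigratory replicate 1 (3.00), and in premigratory replicate 4 neurod1 (2.91), the second FABP7 identifier (3.93) and the number of muscle identifiers with clear signal (3). In each of these, and for the neural tube identifiers above, the other premigratory libraries all had the same value. Any differing value would then have stood apart, whatever its size.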

How the results depend on the processing

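Of all tested genes 1508 rose and 16 fell. The number that rose was 851 without a filter, 821 with a pseudocount of 10, 223 with quantile normalisation, 0 with the fixed replicate block and 771 to 1911 with 1 library left out. The number that fell was 7, 12, 34, 0 and 6 to 19 under the same settings. Of the fate genes 1 rose, and 0 did with quantile normalisation and with the replicate block, while 1 did with each of 12 libraries left out. The fixed block leaves only the 4 shared numbers to estimate the spread. As a random replicate block (correlation 0.0175) the number gave 1543 and 17. With quantile normalisation 223 of 257 calls were rises.

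The sign turned for elavl3 with the fixed replicate block (2.83) and without 1 of 6 libraries (range over all 12 from -1.83 to 1.78, with adjusted p of 0.728 to 0.957) and for elavl4 without migratory replicate 2 (range -0.085 to 1.65) and with quantile normalisation (-2.57); neither was called under any setting, and the cause was not tested beyond the left-out library. For FABP7 (ENSDARG00000007697) the range was 8.55 to 10.39 with adjusted p of 0.000996 to 0.0426. neurog1 could be fitted in 8 of the 12 such fits (3.85 to 4.66), since the other 4 left it under the filter. How far depth limits genes with values under 10 is unknown.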
